A study of Mus musculus with 17 samples.

Results

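The genes described here are 10 surface and secreted products by which mouse monocytes are commonly recognised: Lyz2, F13a1, Itgam, Csf1r, Adgre1, Ccr2, Cx3cr1, Ly6c2, Ms4a6c and Fcgr1. They were chosen by symbol, and each symbol matched 1 of the 56305 gene rows in both deposited count tables. Bulk total RNA was sequenced from bone marrow with acute myeloid leukaemia (AML) of the C57BL/6 mouse strain, and the study asked what changed in transcription after Mt1, the metallothionein 1 gene, was targeted with CRISPR-Cas9. The 9 libraries labelled Mt1ko were summed by the authors into samples 4-6, 10-12 and 16-18, named by their library numbers, and the 8 control libraries into samples 1-3, 7-9 and 14-15. Both groups carried the same heterozygous alleles, Dnmt3aR878H/+ of a DNA methyltransferase gene and Npm1cA/+ of the nucleophosmin gene. Which cells were edited, the guide, what the control received, and the age and sex of the animals were not given in the sources used here.

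Monocytes form in the marrow from granulocyte-monocyte progenitors under the control of the growth factor receptor CSF1R. Classical mouse monocytes carry much Ly6C and CCR2 and leave the marrow in response to CCR2 ligands, whereas non-classical monocytes carry little Ly6C and much CX3CR1 and patrol vessel walls. In human patients, NPM1-mutant AML often has monocytic features, so these genes also describe how far leukaemic marrow resembles monocytes.

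All 17 libraries held between 27124722 and 38645072 counts, and the summed samples between 64247249 and 106407001. Mt1 was 172, 67.8 and 80.7 CPM in Mt1ko samples 4-6, 10-12 and 16-18, against 353, 441 and 359 CPM in control samples 1-3, 7-9 and 14-15 (CPM is counts per 1e6 counts, here scaled by the trimmed mean of M-values, TMM). The library labelled Mt1ko with the number 6, part of sample 4-6, held 317 CPM of Mt1, inside the range of neither the other Mt1ko libraries (49.3 to 95.8 CPM) nor the control libraries (333 to 449 CPM). Libraries 10 to 12 had 21.9% to 30.2% of their counts in mitochondrial ribosomal RNA, against 4.58% to 11.2% in the other 14 libraries, and 11548 to 13174 genes with a count, against 14823 to 17739. Next came libraries 9 and 8 of control 7-9, with 11.2% and 8.77%, and with 14823 and 15404 genes. Library 7 of that sample had 6.03% and 17739 genes. Libraries outside samples 10-12 and 7-9 had 4.58% to 6.31% and 15949 to 17159 genes. All 12 genes of a classical monocyte list averaged at least 10 CPM over the 6 samples, and so did 2 of 12 on a non-classical list. Most lymphoid markers were nearly lacking, since 8 of 10 B cell and 11 of 12 T and NK cell genes averaged under 1 CPM. The exception among the T and NK cell genes was Il7r, with a mean of 50.4 CPM and 88.9 CPM in Mt1ko 10-12.

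None of the 10 genes differed detectably between Mt1ko and control marrow. Every gene passed the filter on low counts, and 0 of 10 were called in either direction, where the edgeR quasi-likelihood test over all 16666 tested genes called 0 (0%) at a Benjamini-Hochberg adjusted p under 0.05. Without adjustment, 0 of the 10 genes and 171 of all tested genes (1.03%) had a p under 0.05. DESeq2 likewise called 0 of the 10, and over all genes it called Mt1 alone. For each of the 10 genes the edgeR adjusted p was 1.00. The groups overlapped in all 10 genes. Over all tested genes 1184 (7.10%) had no overlap, so an overlap in all 10 genes does not set them apart. The log2 fold changes, Mt1ko over control, lay between -0.12 for Csf1r and 0.28 for Fcgr1, with a median of 0.05 for the 10 genes and of -0.01 over all tested genes. Their median size without sign was 0.10, against 0.22 over all tested genes. By sign 7 were higher and 3 lower, but the split was 6 and 4 with upper quartile scaling, and 3 and 7 when group means of CPM relative to all counts were compared. Whether the 6 samples are different animals is not stated, so every p-value here reflects only how far these samples spread, possibly for technical reasons. In bulk RNA, fewer monocytes and less of these transcripts per monocyte cannot be told apart.

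**Figure D1:**
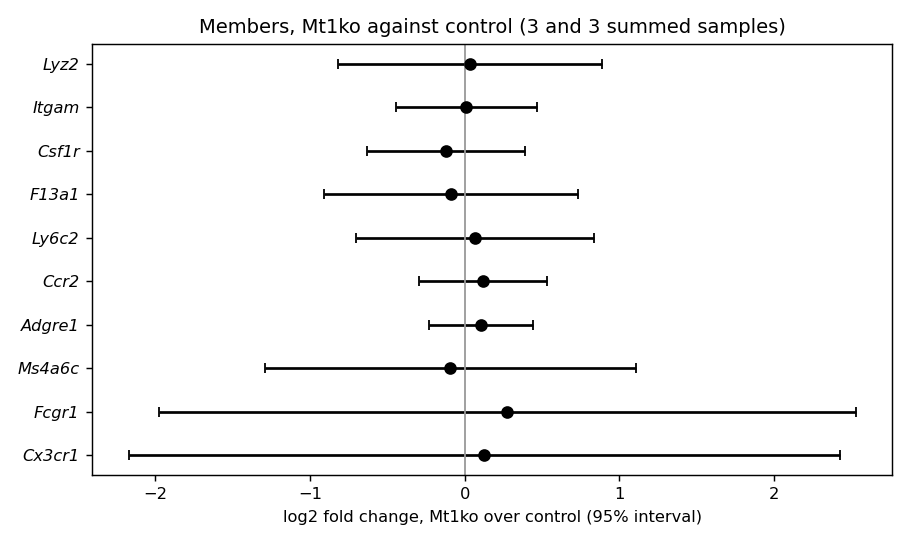
Log2 fold change of each of the 10 genes, Mt1ko over control, with its 95% interval from the edgeR fit on 3 Mt1ko and 3 control summed samples. Every interval includes 0; it is narrowest for Adgre1 (-0.23 to 0.44) and widest for Cx3cr1 (-2.17 to 2.43).

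The intervals state what the samples could show. For Adgre1, Ccr2, Itgam and Csf1r they stayed within 0.63 log2 units of 0, and for Ly6c2, Lyz2 and F13a1 within 0.91. For Ms4a6c the interval ran from -1.29 to 1.11, for Fcgr1 from -1.98 to 2.53 and for Cx3cr1 from -2.17 to 2.43, so for these 3 genes differences of over 1 log2 unit in either direction lay inside the interval. The exact two-sided permutation test of mean log2 CPM gave p between 0.5 and 1 for the 10 genes, and 3 against 3 samples cannot go below 0.1.

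Lyz2 encodes lysozyme M, the enzyme that monocytes, macrophages and neutrophils secrete to cleave bacterial cell walls. Lyz2 (ENSMUSG00000069516, GRCm38 chromosome 10, 117277331 to 117282321, minus strand) held 3111, 4589 and 2988 CPM in Mt1ko samples 4-6, 10-12 and 16-18, against 2238, 5644 and 2554 CPM in control samples 1-3, 7-9 and 14-15. Control 7-9 was the highest sample and Mt1ko 10-12 the next, and the groups overlapped fully. The means were 3562 ± 891 CPM in Mt1ko and 3479 ± 1882 CPM in control (SD, n = 3 each), a log2 fold change of 0.03 with an SE of 0.37 (edgeR adjusted p = 1.00). It was 0.58 without control sample 7-9 and -0.20 without control sample 1-3. All libraries of samples 10-12 and 7-9, at 4353 to 6035 CPM, lay above all others, at 2008 to 3534 CPM.

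Lyz2 has a near copy, Lyz1, the lysozyme of intestinal Paneth cells, which lies next to it on chromosome 10. Lyz1 held 0.929, 0 and 0.336 CPM in Mt1ko samples 4-6, 10-12 and 16-18, and 0.740, 0.464 and 0.698 CPM in control samples 1-3, 7-9 and 14-15. The lysozyme transcripts counted were thus assigned almost wholly to Lyz2, although 15.4% of all stretches of 50 bases in its transcripts also occur in Lyz1, and the sources used here do not say how shared reads were assigned. The sequences before the transcription starts of these copies are shown because the copies differ so much in level. In the 250 bases before each RefSeq start (GRCm38.p6), 200 bases or 80% matched in an alignment. Below, the 49 bases nearest each start are left out, because the GENCODE first exon of Lyz2 covers them in that gene, and capitals mark the 50 bases of each stretch without a match in the other (minus strand, 5′ to 3′, Lyz2 at chr10:117282322-117282522 and Lyz1 at chr10:117292918-117293118).
Lyz2: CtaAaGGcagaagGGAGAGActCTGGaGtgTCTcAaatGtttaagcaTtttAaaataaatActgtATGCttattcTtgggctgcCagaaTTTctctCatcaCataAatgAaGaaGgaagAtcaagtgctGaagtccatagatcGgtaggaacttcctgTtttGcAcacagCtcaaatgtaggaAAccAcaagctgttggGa
Lyz1: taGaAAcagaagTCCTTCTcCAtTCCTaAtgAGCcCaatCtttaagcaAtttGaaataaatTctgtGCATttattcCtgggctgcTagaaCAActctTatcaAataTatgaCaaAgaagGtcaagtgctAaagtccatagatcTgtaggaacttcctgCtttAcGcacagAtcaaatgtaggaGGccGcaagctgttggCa
In each stretch of 201 bases, 151 matched, and the mismatches crowd at its far end from the start.

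F13a1 encodes the catalytic A subunit of coagulation factor XIII, the transglutaminase that crosslinks fibrin, and classical monocytes are a main source of its transcript. F13a1 (ENSMUSG00000039109, chromosome 13, 36867178 to 37050244, minus strand) held 2227, 1067 and 2374 CPM in Mt1ko samples 4-6, 10-12 and 16-18, against 2435, 1256 and 2334 CPM in control samples 1-3, 7-9 and 14-15. Mt1ko 10-12 and control 7-9 were the low samples, at about the same distance below the other samples of either group. The group means were 1889 ± 716 CPM in Mt1ko and 2008 ± 654 CPM in control (SD, n = 3 each), a log2 fold change of -0.09 with an SE of 0.35 (edgeR adjusted p = 1.00). It was 0.20 without Mt1ko sample 10-12 and -0.34 without control sample 7-9. Libraries of one sample were close to each other, at 1021 to 1127 CPM in 10-12 and 1045 to 1442 CPM in 7-9, and at 2158 to 2567 CPM in all others.

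F13a1 therefore ran opposite to Lyz2 across the samples. The ratio of F13a1 to Lyz2, both in CPM, was 0.716, 0.233 and 0.795 in Mt1ko samples 4-6, 10-12 and 16-18, and 1.09, 0.223 and 0.914 in control samples 1-3, 7-9 and 14-15. In the libraries of Mt1ko 10-12 it was 0.210 to 0.259 and in those of control 7-9 it was 0.211 to 0.239, whereas no other library was under 0.611. The samples that stood low came from both groups.

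Itgam, Csf1r and Adgre1 encode receptors that monocytes share with macrophages. Itgam encodes CD11b, the alpha chain that pairs with the beta chain CD18 (Itgb2) to form the adhesion and complement receptor Mac-1. Itgam (ENSMUSG00000030786, chromosome 7, 128062640 to 128118491, plus strand) held 3624, 2262 and 3133 CPM in Mt1ko samples 4-6, 10-12 and 16-18, against 3184, 2856 and 2906 CPM in control samples 1-3, 7-9 and 14-15. Mt1ko samples were both the highest and the lowest, and the control samples lay between them. The log2 fold change was 0.01 (SE 0.20, edgeR adjusted p = 1.00), and its sign turned with upper quartile scaling (-0.01). Its partner Itgb2 held 1727, 1637 and 1697 CPM in Mt1ko and 1475, 2123 and 1453 CPM in control samples, in the same order, and was not called. Per CPM of Itgb2 there were 2.10, 1.38 and 1.85 CPM of Itgam in Mt1ko and 2.16, 1.345 and 2.00 CPM in control, so 10-12 and 7-9 were again the low samples. A predicted protein-coding gene, Gm49368, overlaps Itgam on the same strand and shares 66.3% of its 50-base stretches, so the Itgam level is uncertain to the extent that reads were assigned there. Gm49368 itself held 53.1, 25.5 and 61.7 CPM in Mt1ko and 44.6, 52.9 and 42.6 CPM in control samples.

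Csf1r, the receptor for the growth factors CSF1 and IL-34 on which monocytes and macrophages depend, did not follow the same samples. Csf1r (ENSMUSG00000024621, chromosome 18, 61100598 to 61132149, plus strand) held 418, 245 and 419 CPM in Mt1ko samples 4-6, 10-12 and 16-18, against 377, 440.5 and 357 CPM in control samples 1-3, 7-9 and 14-15. Mt1ko 10-12 was the lowest sample and control 7-9 the highest. The means were 361 ± 100.3 CPM in Mt1ko and 391 ± 43.7 CPM in control (SD, n = 3 each), and the log2 fold change of -0.12 with an SE of 0.22 (edgeR adjusted p = 1.00) was 0.10 without Mt1ko sample 10-12. Of the ligands, Csf1 held 15.6, 19.5 and 17.2 CPM in Mt1ko and 18.2, 11.7 and 25.1 CPM in control samples, and Il34 is listed at 0 in all 6.

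Adgre1 encodes F4/80, an adhesion G protein-coupled receptor used as a macrophage marker in mice. Adgre1 (ENSMUSG00000004730, chromosome 17, 57358691 to 57483527, plus strand) was the steadiest of the 10 genes, at 279, 221 and 289.6 CPM in Mt1ko samples 4-6, 10-12 and 16-18, against 266, 236 and 231 CPM in control samples 1-3, 7-9 and 14-15. Its highest sample held 1.31 times its lowest. The log2 fold change was 0.11 (SE 0.15, edgeR adjusted p = 1.00), and it stayed between 0.03 and 0.22 when each sample was left out in turn.

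The chemokine receptors Ccr2 and Cx3cr1 mark classical and non-classical monocytes. Ccr2 (ENSMUSG00000049103, chromosome 9, 124101950 to 124113557, plus strand), the receptor that draws classical monocytes out of the marrow, held 286, 207 and 286 CPM in Mt1ko samples 4-6, 10-12 and 16-18, against 275, 203 and 239.7 CPM in control samples 1-3, 7-9 and 14-15. Mt1ko 10-12 and control 7-9 were the low samples, and the groups overlapped. The means were 259.6 ± 45.6 CPM in Mt1ko and 239 ± 36.1 CPM in control (SD, n = 3 each), a log2 fold change of 0.12 with an SE of 0.18 (edgeR adjusted p = 1.00). The CCR2 ligand genes Ccl2 and Ccl7 were low in the same samples. Ccl2 held 851, 178 and 663 CPM in Mt1ko and 668, 195 and 477 CPM in control samples, a log2 fold change of 0.34 with an SE of 0.59 (edgeR adjusted p = 1.00). Ccl7 held 115, 25.5 and 99.2 CPM in Mt1ko and 94.6, 27.9 and 68.7 CPM in control samples. A further ligand gene, Ccl12, held 4.67, 0.428 and 3.901 CPM in Mt1ko and 4.23, 0.0386 and 5.37 CPM in control samples, so transcripts of receptor and ligands were scarcest in the same samples, 1 of each group.

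Cx3cr1, the fractalkine receptor of patrolling monocytes, ran the other way. Cx3cr1 (ENSMUSG00000052336, chromosome 9, 119901616 to 120069879, minus strand) held 6.16, 24.4 and 7.28 CPM in Mt1ko samples 4-6, 10-12 and 16-18, against 2.46, 29.2 and 2.86 CPM in control samples 1-3, 7-9 and 14-15. Control 7-9 was the highest sample and Mt1ko 10-12 the next, and the highest held 11.9 times the lowest. Counting error was small beside this, since the sums held 193 to 3025 counts. The means were 12.6 ± 10.2 CPM in Mt1ko and 11.5 ± 15.3 CPM in control (SD, n = 3 each), a log2 fold change of 0.13 with an SE of 0.99 (edgeR adjusted p = 1.00). It was 2.26 without control sample 7-9 and -0.77 without Mt1ko sample 10-12, with an edgeR adjusted p of 1.00 in both fits. The ligand gene Cx3cl1 is listed at 0 in the 3 Mt1ko samples and in control 7-9, and held 0.524 CPM in control 1-3 and 0.208 CPM in control 14-15. Those levels rest on 1 library each, with 51 counts in library 2 and 14 in library 15, and the other 15 libraries held 0.

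The balance of these 2 receptors set the same samples apart. The ratio of Ccr2 to Cx3cr1, both in CPM, was 46.5, 8.50 and 39.3 in Mt1ko samples 4-6, 10-12 and 16-18, and 112, 6.93 and 83.7 in control samples 1-3, 7-9 and 14-15. Within each group 1 sample was far below its other samples. Both remaining Mt1ko samples also lay below both remaining control samples, an ordering that was noticed in the values and not tested.

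**Figure D2:**
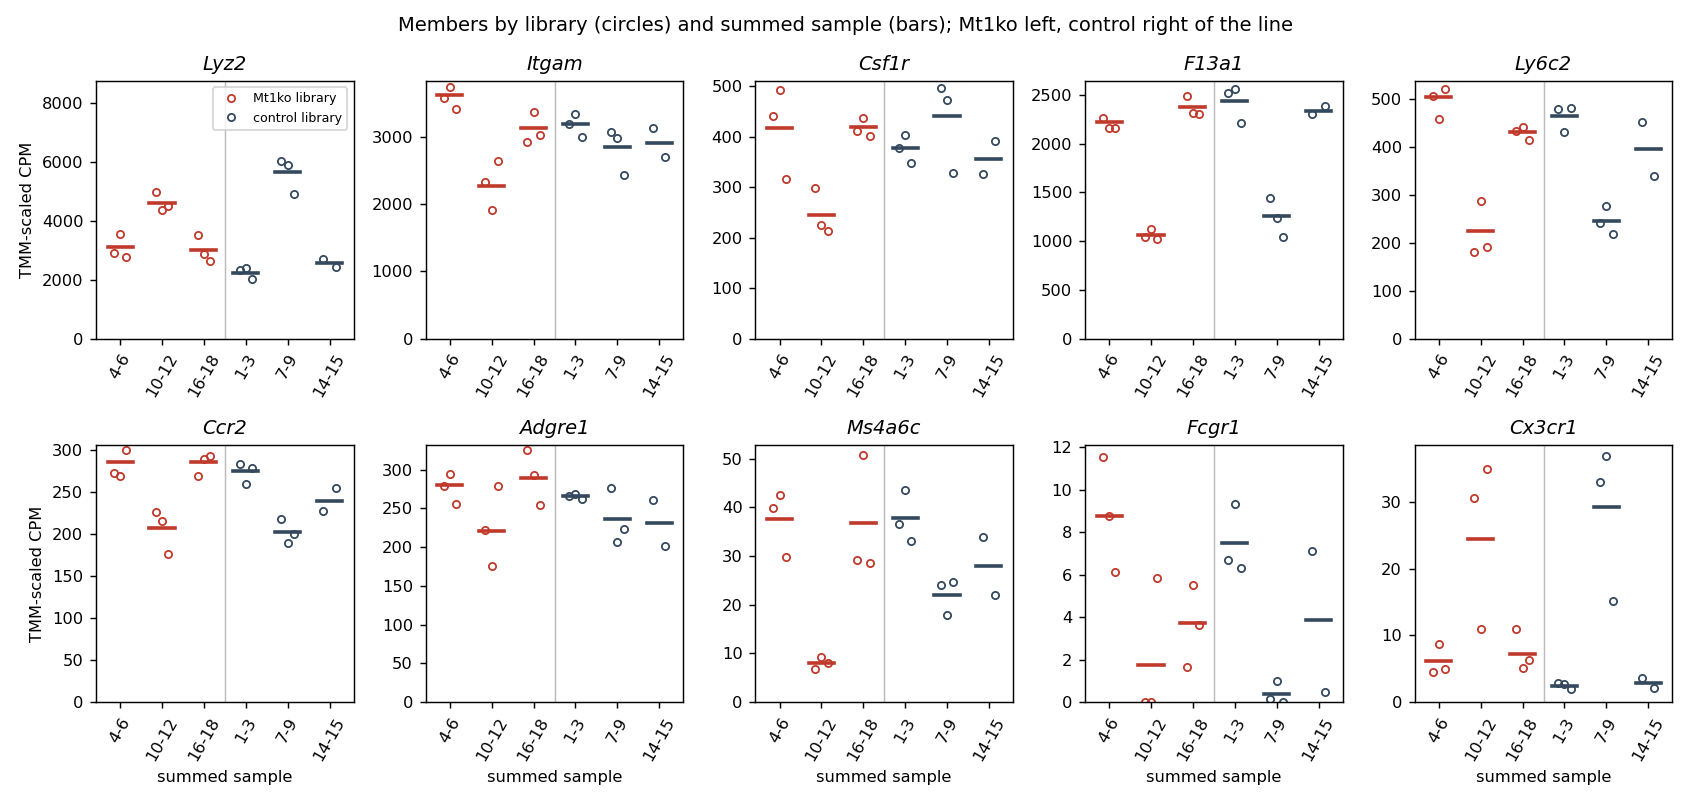
TMM-scaled CPM of each of the 10 genes by library (circles) and by summed sample (bars), with Mt1ko samples left of the line and control samples right of it; each axis starts at 0. Mt1ko 10-12 and control 7-9 are low for F13a1, Ly6c2, Ccr2, Ms4a6c and Fcgr1 and high for Lyz2 and Cx3cr1, and for no gene do all Mt1ko samples lie on one side of all control samples.

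Ly6c2 encodes a small surface protein tethered by a lipid anchor, part of the Ly6C antigen that defines classical monocytes. Ly6c2 (ENSMUSG00000022584, chromosome 15, 75108158 to 75111970, minus strand) held 503, 224 and 430.4 CPM in Mt1ko samples 4-6, 10-12 and 16-18, against 464, 246 and 396 CPM in control samples 1-3, 7-9 and 14-15. Mt1ko 10-12 and control 7-9 were the low samples, and the groups overlapped. The means were 386 ± 145 CPM in Mt1ko and 368 ± 111 CPM in control (SD, n = 3 each), a log2 fold change of 0.07 with an SE of 0.33 (edgeR adjusted p = 1.00). It was 0.34 without Mt1ko sample 10-12 and -0.17 without Mt1ko sample 4-6.

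The neighbouring near copy Ly6c1, whose product carries the same antigen, was likewise lowest in samples 10-12 and 7-9. Ly6c1 held 48.3, 18.6 and 49.7 CPM in Mt1ko samples 4-6, 10-12 and 16-18, and 50.8, 25.4 and 42.1 CPM in control samples 1-3, 7-9 and 14-15. The ratio of Ly6c2 to Ly6c1 was 10.4, 12.0 and 8.66 in Mt1ko and 9.13, 9.68 and 9.39 in control. The libraries of Mt1ko 10-12 did not share a ratio. Ly6c2 held 181, 286 and 192 CPM in libraries 10, 11 and 12, against 20.7, 3.32 and 35.9 CPM of Ly6c1, so the ratio ran from 5.34 to 86.4 there and from 7.49 to 13.9 in all other libraries. Without library 11 the ratio of sample 10-12 was 6.64, and without library 12 it was 21.1, so its value rests on single libraries. In Ly6c2 transcripts, 13.9% of the 50-base stretches also occur in Ly6c1, and the part of shared reads in these levels was not tested. The sequences before both starts are shown because the copies share a low level in the same summed samples. Of the 250 bases before each RefSeq start, 164 or 65.6% matched in an alignment, and capitals mark the 86 bases of each without a match in the other (GRCm38.p6, minus strand, 5′ to 3′, Ly6c2 at chr15:75111972-75112221 and Ly6c1 at chr15:75048838-75049087).
Ly6c2: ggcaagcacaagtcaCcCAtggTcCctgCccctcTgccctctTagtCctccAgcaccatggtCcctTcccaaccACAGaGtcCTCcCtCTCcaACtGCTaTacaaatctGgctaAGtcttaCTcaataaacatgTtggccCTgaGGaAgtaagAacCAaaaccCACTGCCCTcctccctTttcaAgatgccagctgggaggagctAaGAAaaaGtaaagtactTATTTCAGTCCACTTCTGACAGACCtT
Ly6c1: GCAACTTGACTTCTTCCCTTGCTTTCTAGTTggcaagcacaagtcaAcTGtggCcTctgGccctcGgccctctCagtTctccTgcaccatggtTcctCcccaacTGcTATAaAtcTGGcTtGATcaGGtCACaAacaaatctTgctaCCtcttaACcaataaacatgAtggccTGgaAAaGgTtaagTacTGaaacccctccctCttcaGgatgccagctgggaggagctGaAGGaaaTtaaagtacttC
The first bases shown for Ly6c1 have no counterpart in the Ly6c2 window, and the last bases of the Ly6c2 window none in that of Ly6c1.

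Ms4a6c encodes a membrane-spanning protein of the MS4A family expressed in mouse monocytes. Ms4a6c (ENSMUSG00000079419, chromosome 19, 11469366 to 11482192, plus strand) held 37.6, 8.11 and 36.7 CPM in Mt1ko samples 4-6, 10-12 and 16-18, against 37.8, 22.03 and 28.01 CPM in control samples 1-3, 7-9 and 14-15. Mt1ko 10-12 was far below every other sample, and control 7-9 was the next lowest. The log2 fold change was -0.09 (SE 0.52, edgeR adjusted p = 1.00), and it was 0.35 without Mt1ko sample 10-12. Ms4a6d, a gene of the same family, held 83.5, 45.6 and 92.2 CPM in Mt1ko and 89.1, 43.2 and 68.5 CPM in control samples, with the same 2 samples lowest. Ms4a6b was scarce, at 0.881 to 2.21 CPM in Mt1ko and 0.618 to 3.07 CPM in control samples.

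Fcgr1 encodes CD64, the high-affinity receptor for IgG, whose surface form needs the common gamma chain encoded by Fcer1g. Fcgr1 (ENSMUSG00000015947, chromosome 3, 96282909 to 96293969, minus strand) held 8.77, 1.75 and 3.73 CPM in Mt1ko samples 4-6, 10-12 and 16-18, against 7.47, 0.406 and 3.89 CPM in control samples 1-3, 7-9 and 14-15. The low samples were Mt1ko 10-12 and control 7-9, and the groups overlapped. The log2 fold change was 0.28 (SE 0.97, edgeR adjusted p = 1.00), and it was -0.52 without Mt1ko sample 4-6 and 1.15 without control sample 1-3.

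Counts of Fcgr1 were few in several libraries. Control sample 7-9 held 42 counts, which is 0.427 CPM of all counts with an exact binomial interval of 0.308 to 0.577 (95%, counting error only). Libraries 10 and 11, labelled Mt1ko, and control library 9 held 0 counts, where 3 counts would be 0.0999, 0.0900 and 0.110 CPM. Their exact binomial intervals (95%) reached 0.123, 0.111 and 0.136 CPM. All 139 counts of Mt1ko sample 10-12 came from library 12, so its level rests on 1 library. Fcer1g held 267, 127 and 198 CPM in Mt1ko and 263, 122 and 218 CPM in control samples, low in the same samples as its partner.

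A short motif was searched in the 250 bases before the RefSeq start of the members, because the myeloid transcription factor PU.1 is known to act on genes of this kind. The letters were GAGGAA, read on both strands, a core of sites for PU.1 and other ETS factors. RefSeq windows were matched for 8 of the 10 genes, and 4 of the 8 held the letters. Over all genes 6986 of 27025 symbols (25.9%) did, and of 32851 single windows of that length 23.3% did. The matches began 84 and 15 bases before the start of Itgam, 66 before F13a1, 108 before Ly6c2 and 55 before Fcgr1. A match is a run of letters and not a measured site. The windows of F13a1 and Fcgr1 are shown as genes low in the same samples that hold the letters in opposite orientations, with the match in capitals (GRCm38.p6, minus strand, 5′ to 3′, F13a1 at chr13:37050245-37050494 and Fcgr1 at chr3:96293970-96294219).
F13a1: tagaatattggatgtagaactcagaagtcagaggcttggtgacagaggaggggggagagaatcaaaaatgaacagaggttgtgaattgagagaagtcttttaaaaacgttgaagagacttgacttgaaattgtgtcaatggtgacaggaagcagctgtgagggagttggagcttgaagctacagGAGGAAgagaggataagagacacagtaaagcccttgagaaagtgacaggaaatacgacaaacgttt
Fcgr1: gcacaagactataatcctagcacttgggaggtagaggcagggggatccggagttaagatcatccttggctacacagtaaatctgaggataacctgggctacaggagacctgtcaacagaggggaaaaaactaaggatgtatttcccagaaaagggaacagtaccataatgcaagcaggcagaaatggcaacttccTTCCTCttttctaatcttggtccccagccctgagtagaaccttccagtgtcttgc
The match in F13a1 reads GAGGAA and that in Fcgr1 its reverse complement TTCCTC.

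The levels of the 10 genes spanned a wide range, and lengths change their order little. Per kilobase of exon, the mean CPM over the 6 samples was 2675 ± 1001 for Lyz2 and 596 ± 89.7 for Itgam (SD, n = 6). F13a1 followed at 289 ± 91.5, Ly6c2 at 138 ± 42.3, Adgre1 at 78.4 ± 8.76, Csf1r at 65.1 ± 12.3 and Ccr2 at 36.9 ± 5.69 CPM per kilobase. The lowest were Ms4a6c at 13.8 ± 5.75, Cx3cr1 at 2.68 ± 2.59 and Fcgr1 at 1.68 ± 1.25 CPM per kilobase. The ranges over samples overlapped between F13a1 and Ly6c2, Ly6c2 and Adgre1, Adgre1 and Csf1r, Ms4a6c and Cx3cr1, and Cx3cr1 and Fcgr1. These ranges pool the samples, and neighbours in the order were not compared within each sample. An overlap therefore does not show that their order changed in any sample. Without division by length Csf1r stood above Adgre1.

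The variation of the 10 genes lay between samples of the same group. Of the sum of squares of log2(CPM + 1) over the 17 libraries, a median of 2.99% lay between Mt1ko and control, 81.1% between samples of a group and 14.5% between libraries of a sample. Over all tested genes the medians were 3.14%, 29.4% and 63.8%. For the 8201 tested genes with a mean of at least 10 CPM, they were 2.72%, 34.8% and 58.8%. F13a1 had 95.8% of its variation between samples of a group, Lyz2 92.0% and Ly6c2 89.4%. Adgre1, with 39.2%, was the exception, and 56.4% of its variation lay between libraries of a sample. The range of log2(CPM + 1) over the 6 samples had a median of 1.18 for the 10 genes and of 0.83 over all tested genes.

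**Figure D3:**
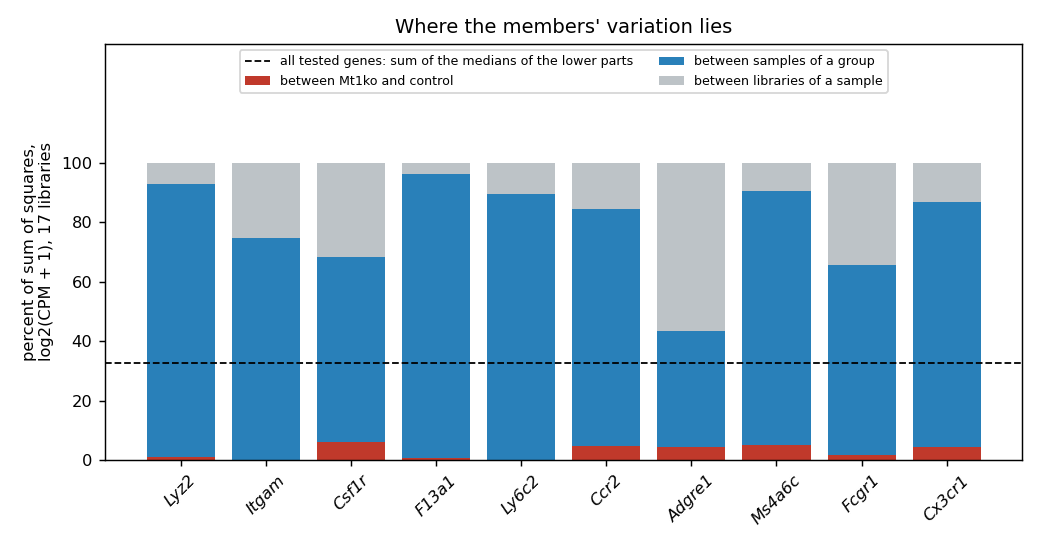
Share of the sum of squares of log2(CPM + 1) over 17 libraries that lies between Mt1ko and control, between samples of a group and between libraries of a sample, for each of the 10 genes, with a dashed line at the sum of the first 2 medians over all tested genes. The share between groups is at most 5.96% (Csf1r), and the share between samples of a group reaches 95.8% (F13a1).

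The same samples were extreme in most of the 10 genes. Mt1ko 10-12 and control 7-9 were the 2 lowest of the 6 samples for Itgam, F13a1, Ly6c2, Ccr2, Ms4a6c and Fcgr1, which makes 6 of 10 genes, against 20.1% of all tested genes. They were the 2 highest for Lyz2 and Cx3cr1, 2 of 10 genes, against 15.6% of all tested genes. Csf1r and Adgre1 were neither. The place of Itgam rests on a small margin, 2856 CPM in control 7-9 against 2906 CPM in control 14-15. Libraries 7 and 8 of control 7-9, at 3073 and 2990 CPM, lay above library 15 of control 14-15, at 2696 CPM. The pattern was seen in these values, and the 10 genes share libraries, so the counts describe these samples. The ratio of Ly6c2 to Cx3cr1, both in CPM, gives the pattern in 1 value per sample. It was 81.7, 9.19 and 59.1 in Mt1ko samples 4-6, 10-12 and 16-18, and 189, 8.41 and 138 in control samples 1-3, 7-9 and 14-15. Without library 11 the value of Mt1ko 10-12 was 5.70.

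**Figure D4:**
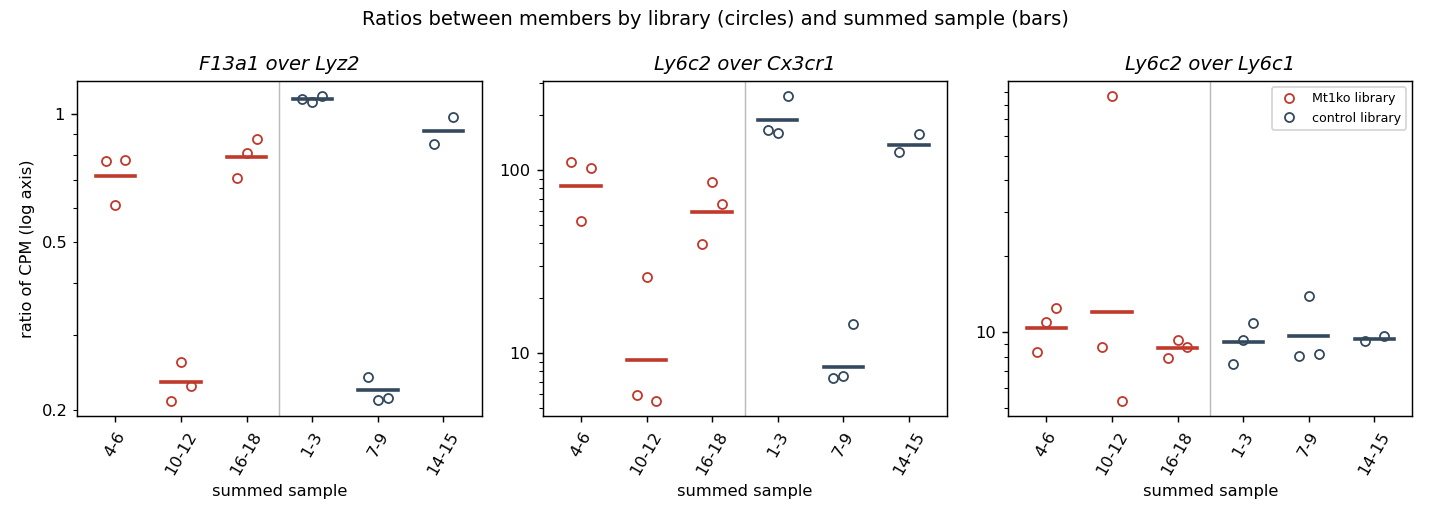
Ratios of CPM (log axis) by library (circles) and summed sample (bars), with Mt1ko samples left of the line and control samples right of it, for F13a1 over Lyz2, Ly6c2 over Cx3cr1 and Ly6c2 over Ly6c1. The first 2 ratios are low in Mt1ko 10-12 and control 7-9 (0.233 and 0.223, and 9.19 and 8.41), and Ly6c2 over Ly6c1 is between 8.66 and 12.0 in the summed samples, but runs from 5.34 to 86.4 among the libraries of Mt1ko 10-12.

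Across the 17 libraries Lyz2 and Cx3cr1 ran together and opposite to most of the other genes. Of the 45 pairs of genes, 31 had a positive and 14 a negative Spearman correlation, with a median of 0.38. The highest was 0.94 between Lyz2 and Cx3cr1, and the lowest was -0.76 between Lyz2 and F13a1. Csf1r opposed neither, at 0.11 with Lyz2 and 0.01 with Cx3cr1, and Adgre1 was at -0.06 with each. Libraries of one sample are not independent, so these values describe the libraries and carry no p. Among 7784 other genes with a mean of at least 10 CPM, predicted loci left out, Mpeg1, which encodes the pore-forming protein perforin-2 of macrophages, was most like Lyz2 (Spearman 0.93), followed by Lgals3, which encodes galectin-3 (0.90). Sgms2 and Gpnmb were most like Cx3cr1 (Spearman 0.90 each), and Gpnmb, a glycoprotein of macrophages and osteoclasts, held 1488, 2102 and 1753 CPM in Mt1ko and 1190.1, 1993 and 1297 CPM in control samples. Lratd2 and the protease gene Furin were most like Ly6c2 (0.91 each), Mroh1 and Impa2 most like F13a1 (0.91 each), and Cyp26b1, a retinoic acid hydroxylase gene, most like Ccr2 (0.92) before Hadhb (0.88). Cyp26b1 held 17.1, 1.27 and 23.5 CPM in Mt1ko and 19.9, 0.734 and 12.8 CPM in control samples.

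Itgam was most like Ncl and Reep3 (Spearman 0.97 each), and Ncl encodes the nucleolar protein nucleolin. Ms4a6c was most like Septin7 and Itpripl2 (0.95 each), Fcgr1 most like Tuba1c (0.95) and Rtraf (0.94), Csf1r most like Glg1 (0.91) and Ddx23 (0.89), and Adgre1 most like Adipor1 (0.94) and Il1rn (0.90). Of these, Il1rn, which encodes the antagonist of the interleukin-1 receptor, is a known product of monocytes and macrophages.

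**Figure D5:**
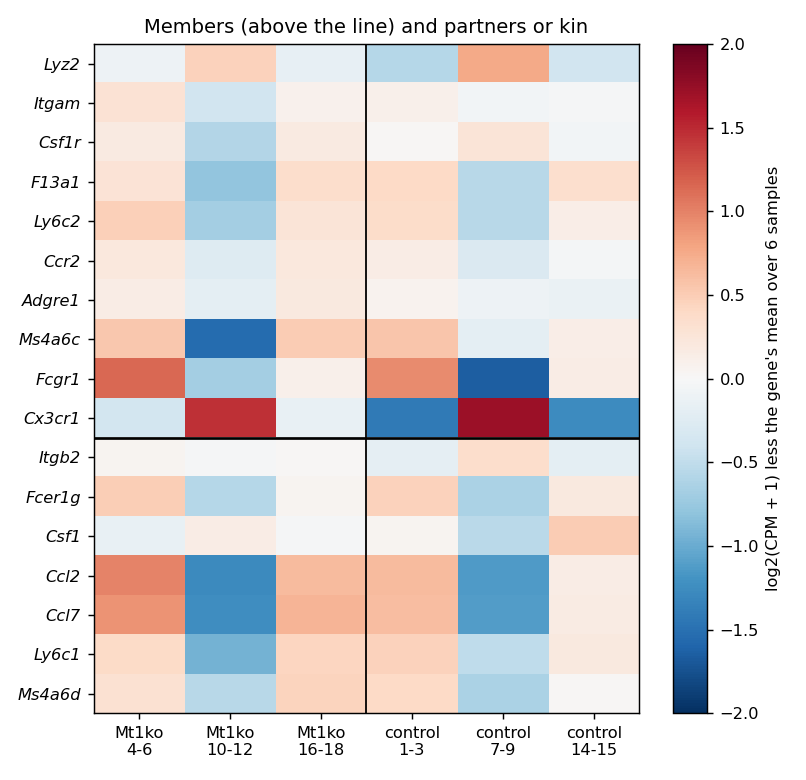
Level of the 10 genes (above the line) and of 7 partners or kin (under it) in each summed sample, as log2(CPM + 1) less the mean of the gene over the 6 samples, with Mt1ko samples left of the line and control samples right of it. Mt1ko 10-12 and control 7-9 are blue (lower) for Fcer1g, Ccl2, Ccl7, Ly6c1 and Ms4a6d as for most of the 10 genes, and red (higher) for Lyz2 and Cx3cr1.

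Other genes of monocytes were likewise not called. Of 24 tested partners and kin of the 10 genes, 13 were higher and 11 lower in Mt1ko, with a median log2 fold change of 0.04. Of 12 classical monocyte genes 6 were higher and 6 lower, with a median of -0.01. The leading classical genes were Vcan, which encodes the matrix proteoglycan versican, and Fn1, which encodes fibronectin. Vcan held 4344, 2842 and 4795 CPM in Mt1ko and 4705, 3676 and 5281 CPM in control samples, and Fn1 3240.1, 1515 and 3932 CPM in Mt1ko and 3062, 2552 and 3833 CPM in control samples. Of 10 tested non-classical genes 4 were higher and 6 lower, with a median of -0.34, and 6 of the 12 on that list averaged under 1 CPM, among them Cd300e, which is listed at 0. None of these genes passed over all 16666 tested genes (edgeR, adjusted p under 0.05), and the list medians stand beside a median of -0.01 over all tested genes.

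Markers of other cells moved with the samples that were extreme. The 14 neutrophil genes, 9 of them tested, summed to 2225, 276 and 1763 CPM in Mt1ko samples 4-6, 10-12 and 16-18, and to 1886, 278 and 2036 CPM in control samples 1-3, 7-9 and 14-15. Chil3, a chitinase-like gene that is also on the classical monocyte list, held 1904, 63.0 and 1469 CPM in Mt1ko and 1624, 49.2 and 1711 CPM in control samples, which is most of the sum except in 10-12 and 7-9. There most of the sum was Mmp8, the neutrophil collagenase gene, which varied little, at 206, 171 and 207 CPM in Mt1ko and 164, 188 and 217 CPM in control samples. Camp and Retnlg, also on the neutrophil list, are listed at 0. The 13 tissue macrophage genes, 8 tested, summed to 2443, 4309 and 2856 CPM in Mt1ko and 2777, 4076 and 3011 CPM in control samples. Of that sum Hmox1, the haem-degrading oxygenase gene, made 2156, 4269 and 2593 CPM in Mt1ko and 2443, 4043 and 2823 CPM in control samples, while Mrc1, the mannose receptor gene, was low where Hmox1 was high, at 259, 19.9 and 235 CPM in Mt1ko and 305, 12.2 and 164 CPM in control samples. Another 9 of the 13, among them Timd4 at 0, averaged under 1 CPM.

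The 12 mast cell, basophil and eosinophil genes, 8 of them tested, summed to 412, 5286 and 167 CPM in Mt1ko samples 4-6, 10-12 and 16-18, and to 239, 830.2 and 675 CPM in control samples 1-3, 7-9 and 14-15. Their leading genes were the mast cell proteases Tpsb2 and Cpa3, and Prss34, Prg2 and Epx are listed at 0. The 11 granulocyte-monocyte progenitor genes summed to 3351, 1926 and 2889 CPM in Mt1ko and 3234, 1599 and 2764 CPM in control samples. Most of that sum was Calr, which encodes the widely expressed chaperone calreticulin, at 3055, 1424 and 2686 CPM in Mt1ko and 2949, 1392 and 2445 CPM in control samples. On the same list, and named after their values were seen, Kit, the stem cell factor receptor gene that mast cells also express, held 30.2, 297 and 13.9 CPM in Mt1ko and 17.9, 58.5 and 40.9 CPM in control samples, and Cd34 8.39, 76.8 and 4.78 CPM in Mt1ko and 3.81, 7.56 and 9.46 CPM in control samples. Both were thus highest in Mt1ko 10-12, where Calr was low. Other genes of the list, also named after their values were seen, went the other way. Elane held 66.4, 1.37 and 27.0 CPM in Mt1ko and 54.5, 6.71 and 80.0 CPM in control samples. Prtn3 (6.06 CPM) and Ctsg (0 CPM) were likewise lowest in Mt1ko 10-12, whereas Cebpa, at 104 CPM there, was highest. The progenitor list therefore did not move as one. The part of these cells, of depth and of mitochondrial RNA in libraries 8 to 12 in the 10 genes' levels was not tested.

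The libraries also carried different second index sequences, which the library names give. With the first of these, 3 Mt1ko libraries, all of sample 4-6, stood against 5 control libraries, and 7 of the 10 genes were higher and 3 lower in Mt1ko, with a median difference of 0.20 in mean log2(CPM + 1). With the second, 4 Mt1ko libraries, 3 of them of sample 10-12, stood against 3 control libraries, and 3 genes were higher and 7 lower, with a median of -0.16. The control libraries included libraries 7 and 8 of sample 7-9 with the first index, and library 9 of that sample with the second. The part of these samples in the differences by index was not tested. Ly6c2 differed by 0.43 with the first and by -0.33 with the second, and Cx3cr1 by -0.36 and 1.71. Adgre1 (0.11 and 0.10) and Csf1r (-0.02 and -0.33) kept their sign, and the other 8 genes did not. Another index was carried only by 2 Mt1ko libraries. Samples 16-18 and 7-9 carried 2 indexes each and the other 4 samples 1, so index and sample overlap in part. With the second index as a covariate over the 17 libraries, the log2 fold changes lay between -0.33 for Ms4a6c and 0.28 for Fcgr1, 7 were higher and 3 lower, and 0 were called (edgeR adjusted p = 1.00 for each), although libraries of a sample are not independent.

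After the values were seen, Mt1ko 10-12 and control 7-9 were also left out together. Among the remaining 4 samples, 0 of the 10 genes were called, 9 were higher and 1 lower in Mt1ko, and 2 had an unadjusted edgeR p under 0.05, as did 3.34% of all tested genes. These were Cx3cr1, with a log2 fold change of 1.33 (SE 0.34, edgeR unadjusted p = 0.0047, adjusted p = 1.00), and Lyz2, with 0.34 (SE 0.09, edgeR unadjusted p = 0.0065, adjusted p = 1.00). Cx3cr1 held 6.16 and 7.28 CPM in Mt1ko samples 4-6 and 16-18, against 2.46 and 2.86 CPM in control samples 1-3 and 14-15. Lyz2 held 3111 and 2988 CPM in the same Mt1ko samples, against 2238 and 2554 CPM in the same control samples. The 2 samples left out were the highest for both of these genes, so the omission itself reduced their spread. In the fit of all samples the SE was 0.99 for Cx3cr1 and 0.37 for Lyz2. The unadjusted p-values of this edgeR fit therefore cannot serve as a test of these genes. Neither gene passed the threshold, and sample 4-6 includes the library labelled Mt1ko with the high Mt1 level.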

How the data were processed

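The labels' protocols give RNeasy Micro extraction with DNase digestion and a Takara SMARTer Pico stranded total RNA kit, version 2. The submitters' processing notes name Trimmomatic 0.35, RSEM 1.3.3 and the builds GRCm38 and mm10. The aligner, the read length and the strand setting were not given in the sources used here. Whole-number gene counts were deposited by the authors, for 17 libraries and for 6 sums of them. Each sum equalled its libraries in every gene. Library 13 was not analysed here.

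The titles of the samples gave the groups and call every library a technical replicate, so the 6 sums were compared. Counts were tested in R 4.3.3 with edgeR 4.0.16 (filterByExpr, TMM scaling, quasi-likelihood F test, Benjamini-Hochberg over all tested genes, threshold 0.05), and the procedure was tested on simulated data with 200 changed genes. DESeq2 1.42.0 was an alternative. CPM are TMM-scaled, separately for the sums and the libraries, and log2 values of CPM used a pseudocount of 1. Exon lengths and coordinates came from GENCODE vM21 (GRCm38), and the sequences before gene starts from RefSeq (GRCm38.p6), at the outermost start of each gene. Likeness was the Spearman correlation over 17 libraries with genes of at least 10 CPM.

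The 10 genes and all lists were chosen with earlier results of these data known. All 10 genes were named. Others that could be named were those partners and kin that have one of them as receptor, ligand, subunit, near copy or family member, the 2 highest genes of each list, genes listed at 0, and the 2 genes most like each of the 10. Alternatives were other scalings, filters, tools, units of replication and omissions, and leaving single libraries out of ratios was added after the values were seen. Counting intervals leave out all other error.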

Additional observations from a re-analysis of the deposited data

Results flagged for a closer look

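Among 22 sets of library values examined (the 10 genes and Mt1, in the Mt1ko and in the control libraries), 1 had a library that stood well away from its group, and chance marks about 1 in 20. It was Mt1 in library 6, labelled Mt1ko, at 317 CPM, against 95.8 CPM in the next Mt1ko library. None of the 10 monocyte genes had such a library in either group. With library 6 left out of its sum, the log2 fold changes of the 10 genes lay between -0.08 (F13a1) and 0.42 (Fcgr1), and 0 were called.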

How the results depend on the processing

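None of the 10 genes was called under any alternative run, and the lowest edgeR or DESeq2 adjusted p of any of them was 0.9993; DESeq2 gave none for Cx3cr1. No paired analysis was possible because the groups share no replicate numbers. Over all genes, 1 gene was called in place of 0 (Mt1 each time) with DESeq2, when the 17 libraries were the samples, and when sample 4-6 was summed without library 6, and 1 without Mt1ko 10-12 and control 7-9 together (mt-Co3, named after its value was seen); leaving out each sample in turn gave 0 to 0 calls. Signs were not stable. The log2 fold change of Itgam was -0.015 with upper quartile scaling, that of Lyz2 was -0.0078 with the 17 libraries as samples, and those of Csf1r and Ms4a6c were 0.19 and 0.17 without the 2 samples together. When each sample was left out in turn, the log2 fold change ranged from -0.20 to 0.58 for Lyz2, from -0.15 to 0.18 for Itgam, from -0.24 to 0.10 for Csf1r, from -0.34 to 0.20 for F13a1, from -0.17 to 0.34 for Ly6c2, from -0.39 to 0.35 for Ms4a6c, from -0.52 to 1.15 for Fcgr1 and from -0.77 to 2.26 for Cx3cr1. Ccr2 (0.02 to 0.26) and Adgre1 (0.03 to 0.22) kept their sign in all 16 alternatives. The cause was not tested. Few counts limit the level of Fcgr1, with 3 libraries at 0.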
